A study of Mus musculus with 12 samples.

Results

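Dendritic cells labelled double knock-out (DKO) for Sidt1 and Sidt2 were compared with wild-type (WT) dendritic cells across the genes of the autosomes and the mitochondrial genome. The cell libraries of mice 33, 42 and 46 (WT) and of mice 151, 152 and 153 (labelled DKO) were taken by their labels, 6 of the 12 libraries of the series. Of 27179 gene identifiers, 24001 had a position off chromosomes X and Y, and 12402 of these had enough counts to be tested. Both groups were bone-marrow-derived dendritic cells of C57Bl/6 mice, grown from femur marrow over 7 days in DMEM to which serum of fetal calves and medium conditioned by X-63 cells had each been added at 10%, the latter to supply GM-CSF. All mice labelled DKO were male, whereas WT mice 33 and 42 were female and WT mouse 46 was male. Per the labels there was 1 cell library per mouse, with no further agent in either group. Not given in the sources used here are age, alleles, the deleted parts of the genes and the C57Bl/6 substrain of each group. The other 6 libraries hold RNA of exosomes, small vesicles released by the same cultures.

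SIDT1 and SIDT2 are multi-pass membrane proteins related to SID-1, the nematode protein that lets double-stranded RNA cross membranes. SIDT2 resides mainly in lysosomes, the acid compartments in which cells degrade RNA, lipid and protein. SIDT1 is found in membranes of the cell surface and of endosomes and lysosomes. Dendritic cells take up material from their surroundings, sense foreign RNA in endosomes and cytosol, and present peptides on MHC molecules to T cells. The comparison addresses which transcripts differ when both genes are meant to be missing.

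Cell libraries held 19095284 to 32273898 counts in WT and 9008189 to 31651403 in the DKO-labelled group, in which mice 151 and 153 had the smaller libraries. Levels below are CPM, counts relative to library size after TMM scaling, which adjusts for differences in RNA composition. A count of 0 allows up to 3 counts, or 0.093 to 0.333 CPM in a cell library, and this limit covers counting error only. The tissue markers Itgax, H2-Ab1, Zbtb46 and Lyz2 were present in both groups and none of them passed the test. Itgax, the integrin CD11c of dendritic cells, averaged 805 ± 88.5 CPM (SD, n = 3) in WT cells and 796 ± 38.8 CPM in cells labelled DKO. H2-Ab1, an MHC class II chain, stood at 1942 ± 165 and 1562 ± 239 CPM. Zbtb46, a transcription factor of conventional dendritic cells, stood at 15.6 ± 0.26 and 13.7 ± 3.06 CPM. The myeloid gene Lyz2 stood at 28986 ± 2791 and 36988 ± 7758 CPM. Some other markers lay apart between groups without passing the test. Cd74 was lower in cells labelled DKO, at 6495 ± 1046 and 4621 ± 585 CPM, and so was Csf1r, at 769 ± 101 and 620 ± 61.6 CPM. Adgre1 was higher, at 424 ± 11.5 and 503 ± 73.7 CPM. The dendritic cell marker Cadm1 did pass the test and is described below. On the first principal component of the 1000 most variable genes (38.8% of their variance) WT libraries lay between -24.92 and -7.88 and the others between 7.7 and 27.33. The 20 most abundant genes took 18.47% to 19.15% of the counts of a WT library and 21.84% to 22.41% of the others. The part of these depth and composition differences in the results below was not tested, apart from the scaling alternatives given with them.

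Few genes passed the test. Of 12402 genes tested, 49 (0.395%) were called, meaning an adjusted p below 0.05 in edgeR's quasi-likelihood F test after Benjamini-Hochberg adjustment. Of these, 31 (0.25% of genes tested) were higher and 18 (0.145%) lower in cells labelled DKO. The WT and DKO-labelled libraries did not overlap in any of the 49, and 22 changed at least 2-fold. Because the genes were called on these same libraries, their lack of overlap is no added support. Of all genes tested, 17.3% did not overlap (8.65% higher and 8.62% lower). With scaling by total counts, which moved the median log2 fold change of all genes from -0.014 to -0.112, 35 genes were called, 15 higher and 20 lower. All 49 kept their direction in every alternative fitted, leaving out each library included. The alternatives reuse the same libraries, so the kept direction is no independent check. However, only 5 (Sidt2, Sidt1, Cadm1, Wdfy1 and Fabp4) stayed called in all of them. Without mouse 152, the most deeply sequenced of those labelled DKO, these 5 were the only genes called. The numbers of genes called were 14 without mouse 151, 44 without mouse 153, 112 without mouse 33, 22 without mouse 42 and 42 without mouse 46. Just inside the threshold lay Thy1 and COX1 (adjusted p = 0.0459) and Ighm (0.0496). Just outside it lay Perp (0.0504), Iglv1 (0.0507) and S100a1 (0.0512), which were not called.

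**Figure D1:**
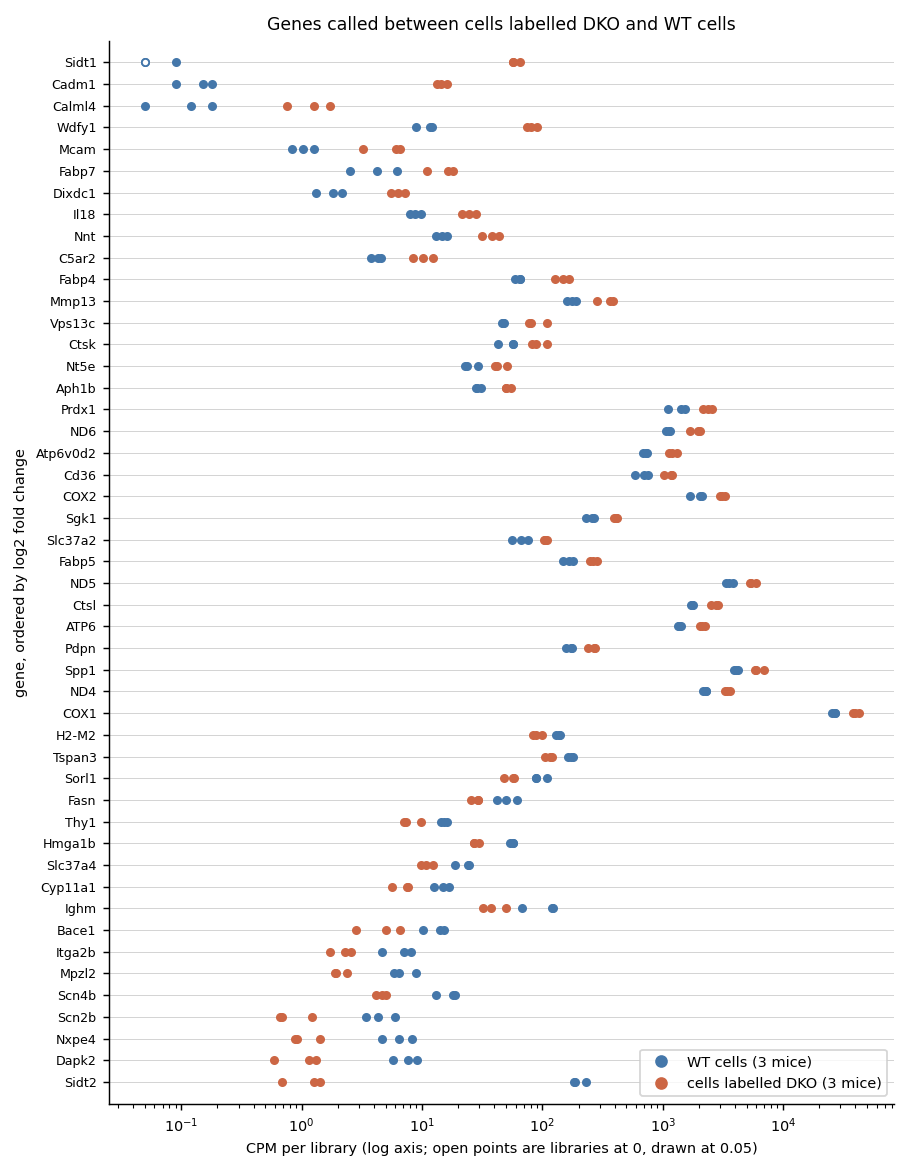
CPM per library (log axis) of 48 called genes, ordered by log2 fold change, with 1 point for each of 3 WT (blue) and 3 DKO-labelled (red) cell libraries; the open point marks libraries at 0, drawn at 0.05. The groups do not overlap in any row, and gaps of over 10-fold are seen for Sidt1, Cadm1 and Sidt2.

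The 2 targeted genes moved in opposite directions, 1 of them against the label. Sidt2 (gene 45937857 to 45958000 on GRCm38 chromosome 9) measured 233, 184 and 188 CPM in WT mice 33, 42 and 46 against 1.43, 0.691 and 1.26 CPM in mice 151, 152 and 153. It fell by 7.67 ± 0.23 (SE) on the log2 scale (edgeR, adjusted p = 1.55e-08). In counts per total, 17648 WT counts against 47 give a ratio of 232 (95% counting interval 174 to 315). Sidt1 (44240177 to 44333212 on chromosome 16) had 3 counts in WT mouse 33 and none in mice 42 and 46, against 56.6, 56.7 and 65.8 CPM in cells labelled DKO. The 3 WT counts against 2890 give a ratio of 1561 (counting interval 534 to 7575), with adjusted p = 2.07e-08. Sidt1 RNA was therefore present in the cells labelled as lacking it and close to absent from WT cells. The deposited counts are sums over each gene, so the exons behind them are not known. The groups are called by their labels throughout, and every direction below is that of libraries labelled DKO against libraries labelled WT. Of the genes next to each locus, Tagln and Pcsk7 beside Sidt2 and Usf3 beside Sidt1 were not called (adjusted p = 0.527, 0.175 and 0.989).

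The promoters of both targeted genes are shown to mark the loci at which these opposite changes were measured. They are RefSeq windows of GRCm38.p6, from 250 bases before to 50 after a start site, and both are read from the minus strand at chr9:45955200-45955499 and chr16:44332789-44333088. Capitals would mark the E-box CACGTG, which factors of the TFEB family bind at many lysosomal genes, and neither window holds one.
Sidt2: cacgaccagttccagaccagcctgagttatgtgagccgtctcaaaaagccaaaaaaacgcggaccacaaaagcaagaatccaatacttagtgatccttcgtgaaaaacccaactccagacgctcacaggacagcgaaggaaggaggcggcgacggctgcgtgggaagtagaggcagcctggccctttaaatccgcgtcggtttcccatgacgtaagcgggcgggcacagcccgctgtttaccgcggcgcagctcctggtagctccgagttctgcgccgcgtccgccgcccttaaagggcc
Sidt1: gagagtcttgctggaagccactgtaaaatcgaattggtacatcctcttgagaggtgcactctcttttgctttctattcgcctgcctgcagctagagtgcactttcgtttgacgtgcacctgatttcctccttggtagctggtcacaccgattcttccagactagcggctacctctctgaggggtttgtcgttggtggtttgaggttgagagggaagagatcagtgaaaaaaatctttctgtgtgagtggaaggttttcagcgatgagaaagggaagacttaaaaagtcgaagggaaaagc

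Chromosome 9, which carries Sidt2, held 22 of the 49 called genes. Of its 727 genes tested 3.03% were called, 10 higher and 12 lower, against 27 of 11675 genes (0.231%) on all other chromosomes. Called genes clustered around Sidt2 itself. Within 10 Mb of its start, which here means its lowest coordinate, and leaving Sidt2 out, 13 of 135 genes (9.63%) were called. Beyond that distance on the chromosome 8 of 591 (1.35%) were called. Near Sidt2 the density was highest in the 5 Mb on either side. Called were 8 of 55 genes at lower coordinates (14.5%) and 4 of 30 at higher ones (13.3%). By contrast, the single called gene of the 82 tested within 10 Mb of Sidt1 on chromosome 16 was Sidt1. The genes are counted here by position and are not independent of each other.

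**Figure D2:**
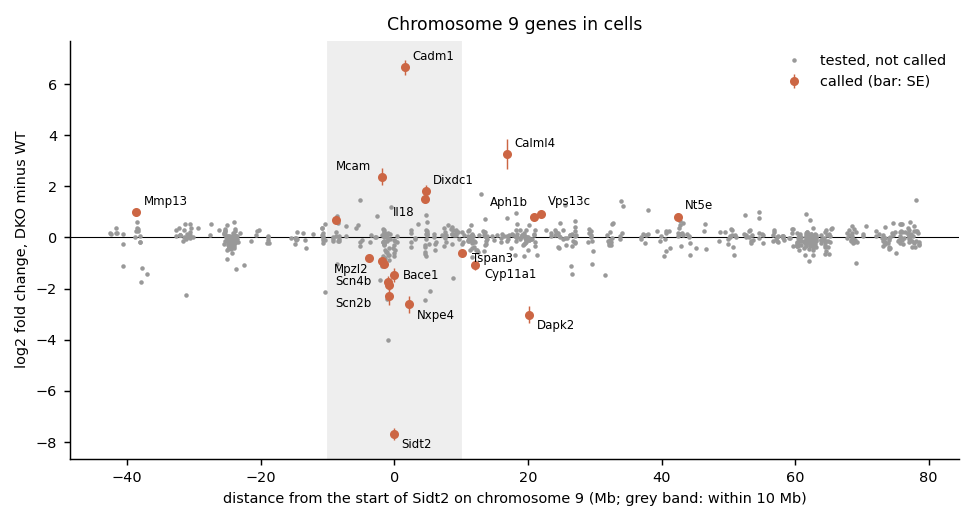
Log2 fold change (cells labelled DKO minus WT) of each of the 727 chromosome 9 genes tested against distance from the start of Sidt2 in Mb; red points are called genes with their SE, grey points are not called, and the band spans 10 Mb on either side. Called genes of both directions gather near Sidt2, with 13 others than Sidt2 inside the band.

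Of the 13 called neighbours of Sidt2, 5 rose and 8 fell. Cadm1, an immunoglobulin-family adhesion molecule that marks cross-presenting dendritic cells, lies at 1.59 Mb from the start of Sidt2 (47530170 to 47862280). Its level was 0.0901, 0.151 and 0.182 CPM in WT cells and 14.4, 16.2 and 13.3 CPM in cells labelled DKO (log2 fold change 6.66 ± 0.29, adjusted p = 2.26e-07). From 12 and 758 counts the ratio was 102 (counting interval 58.3 to 199), so Cadm1 was near the detection limit in WT and well above it in the other group. Of the 22 conventional dendritic cell markers tested, Cadm1 was the only one called, against 0.395% of all genes. Of the 22, 2 lay higher and 3 lower without overlap (22.7%, against 17.3% of all genes). Mcam, the adhesion molecule CD146, rose from 0.841, 1.26 and 1.03 CPM to 3.24, 6.05 and 6.64 CPM (2.37 ± 0.33, adjusted p = 0.0147). Il18, a cytokine of the interleukin 1 family, rose from 8.83, 8.01 and 9.83 CPM to 21.4, 28.4 and 24.7 CPM (1.49 ± 0.16, adjusted p = 0.00218). Its neighbour Dixdc1, which encodes a protein of Wnt signalling, rose from 1.76 ± 0.423 to 6.33 ± 0.862 CPM (adjusted p = 0.0162). Il18 overlaps Bco2 and Tex12, and reads of overlapping genes cannot be assigned with certainty because the strand setting is not known.

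The other 8 called neighbours beside Slc37a2 were lower. The sodium channel beta subunits Scn2b and Scn4b and the adhesion gene Mpzl2 fell, at -0.81, -0.78 and -0.88 Mb from Sidt2. Scn4b fell from 18, 13 and 18.7 CPM to 5.05, 4.18 and 4.7 CPM (-1.85 ± 0.19, adjusted p = 0.00193). Scn2b fell from 3.45, 4.28 and 5.93 CPM to 0.667, 1.22 and 0.687 CPM (-2.28 ± 0.35, adjusted p = 0.02). Mpzl2 fell from 7.06 ± 1.64 to 2.07 ± 0.256 CPM (-1.74 ± 0.25, adjusted p = 0.0162). Bace1, the beta-secretase that cleaves the amyloid precursor, lies at -0.08 Mb and fell from 15.4, 14.2 and 10.3 CPM to 2.86, 5 and 6.53 CPM (adjusted p = 0.0438). Rnf214, which overlaps Bace1, was at 18.5 to 20.8 CPM in WT cells and 17.4 to 19.6 CPM in the others, and was not called. Nxpe4 fell by 2.62 ± 0.32 on the log2 scale (adjusted p = 0.00481). Slc37a4, the glucose 6-phosphate transporter, fell by 1.05, the T cell and stromal glycoprotein Thy1 by 0.93 and the sorting receptor Sorl1 by 0.81. Slc37a2, a sugar phosphate transporter at -8.68 Mb, rose from 66.2 ± 9.96 to 106 ± 2.99 CPM (0.68 ± 0.12). Without mouse 152, 12 of the 13 neighbours missed the threshold, Cadm1 being the exception (adjusted p from 6.90e-05 to 0.375 over the 13). Without mouse 151, 8 missed it (up to 0.199), and without mice 42, 46 or 153, 3 each (up to 0.126, 0.11 and 0.127). Scaling by total counts lost 1 of them, Slc37a2 (adjusted p = 0.0891).

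Farther along chromosome 9 the called genes were spread more widely. Dapk2, a calmodulin-dependent kinase of autophagy and cell death 20.22 Mb from Sidt2, fell from 5.79, 7.61 and 9.14 CPM to 1.33, 0.592 and 1.15 CPM (-3.02 ± 0.34, adjusted p = 0.00233). Nearby genes rose, Aph1b, a subunit of gamma-secretase, from 29.3 ± 1.54 to 51.6 ± 2.86 CPM, and Vps13c, a lipid transfer protein, from 46.9 ± 0.766 to 89.6 ± 17.4 CPM. Calml4 rose from 11 counts over the WT libraries to 62, a ratio of 9.13 (counting interval 4.77 to 19.2). Nt5e, the ectonucleotidase CD73, rose from 25.3 ± 3.58 to 44.6 ± 5.62 CPM. Mmp13, a collagenase at -38.65 Mb from Sidt2, rose from 175, 161 and 190 CPM to 387, 365 and 284 CPM (0.98 ± 0.13, adjusted p = 0.0118). Tspan3 and Cyp11a1 fell by 0.59 and 1.08 on the log2 scale. Without mouse 152 none of these 8 was called (adjusted p from 0.0555 to 0.337). Without mouse 151 only Dapk2 was called (0.00867), and 4, 5 and 4 of the 8 were called without mice 42, 46 and 153 (adjusted p up to 0.132, 0.104 and 0.106). Scaling by total counts ended the calls of Nt5e and Calml4 (up to 0.0755), and a term for sex those of all but Dapk2 (up to 0.801).

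Away from chromosome 9 and the mitochondrial genome, 21 of 11660 genes (0.18%) were called. Besides Sidt1, Wdfy1 changed most among them and Nnt was another that rose. Wdfy1 (79702262 to 79776143 on chromosome 1), a phosphoinositide-binding adaptor of Toll-like receptor signalling, measured 12.1, 11.7 and 8.93 CPM in WT cells and 90, 81.2 and 74.5 CPM in cells labelled DKO. This is a log2 fold change of 2.91 ± 0.15 (adjusted p = 1.23e-06), and it was called in every alternative. Nnt (119335527 to 119409257 on chromosome 13), the mitochondrial enzyme that makes NADPH from NADH, is known to vary between C57BL/6 substrains. It rose from 13.1, 16.3 and 14.7 CPM to 43.8, 38.2 and 31.7 CPM (1.37 ± 0.15, adjusted p = 0.00233), and stood just above the threshold without mouse 152 (0.0555). Whether a difference in genetic background has a part in these results was not tested. Wdfy1 overlaps Mrpl44 on the annotation.

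Fabp4, Fabp5, Fabp7 and Cd36, which bind or take up fatty acids, were among the genes that rose in cells labelled DKO. They are described together for their known roles. Fabp4, Fabp5 and Cd36, but not Fabp7, are on the list of lipid-handling genes counted further below. Fabp4, a fatty acid binding protein of macrophages and fat cells (10204342 to 10208616 on chromosome 3), rose from 64.8, 64.9 and 59.8 CPM to 127, 148 and 168 CPM (log2 fold change 1.22 ± 0.12, adjusted p = 0.00112). Fabp5, which lies near Fabp4, rose from 150, 180 and 168 CPM to 249, 262 and 283 CPM (0.67 ± 0.11, adjusted p = 0.0296). Fabp7, a family member on chromosome 10, rose from 2.52, 4.23 and 6.2 CPM to 11.1, 18 and 16.6 CPM (1.83 ± 0.31, adjusted p = 0.0361). The groups were apart for each of these fatty acid binding proteins, at very different levels. Cd36, the scavenger receptor that imports long-chain fatty acids, rose from 584, 695 and 754 CPM to 1185, 1172 and 1033 CPM (0.74 ± 0.12, adjusted p = 0.0336). Lpl, Plin2 and Pparg, chosen after their values were seen, were not called although their groups did not overlap, with log2 differences of 0.44, 0.35 and 0.51 (adjusted p = 0.207, 0.293 and 0.269). Srebf1, Scd2 and Acaca, chosen likewise, went the other way with groups apart. Their log2 differences were -0.58, -0.27 and -0.22, and none was called. Fabp4 alone of the 4 called genes stayed called with each library left out (adjusted p up to 0.0386). Fabp5 and Fabp7 were lost without mice 42, 151, 152 or 153, Cd36 without mice 42, 151 or 152 and Fabp5 also without mouse 46, with adjusted p up to 0.129, 0.196, 0.294, 0.115 and 0.0692 without mice 42, 151, 152, 153 and 46. With total-count scaling the 3 of them missed the threshold as well (up to 0.0671), and with a term for sex too (up to 0.862). Fabp5 has near-identical processed copies in the genome, which makes its count less certain.

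Fasn, the synthase that builds fatty acids, was lower in cells labelled DKO. It fell from 61.4, 49.5 and 42.1 CPM to 29, 29.3 and 25.8 CPM (-0.86 ± 0.15, adjusted p = 0.0336). All 3 WT libraries lay above all 3 of the others, with the lowest WT level in mouse 46. Of 28 tested targets of the lipid-sensing receptor LXR and other lipid-handling genes, 3 rose (Fabp4, Fabp5 and Cd36) and 1 fell (Fasn), against 0.395% of all genes called, with a median log2 difference of 0.13 against -0.01 over all genes tested. Groups did not overlap in 42.9% of the 28, against 17.3% of all genes, with 8 higher and 4 lower. The gene lists of this account were chosen with earlier results of these data known. Their shares, set against those of all genes, are therefore no independent support. Fasn lost its call without mice 42, 151, 152 or 153 (adjusted p at most 0.264) and with a term for sex (0.897).

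Of the lysosomal genes, 3 rose. Ctsl, the cysteine protease cathepsin L (64361890 to 64370772 on chromosome 13), rose from 1792, 1752 and 1709 CPM to 2859, 2506 and 2766 CPM (0.63 ± 0.11, adjusted p = 0.0336). Ctsk, the collagen-degrading cathepsin K, rose from 56.6, 57.6 and 43.2 CPM to 89.2, 109 and 81.9 CPM (0.84 ± 0.15, adjusted p = 0.0348). Atp6v0d2, a subunit of the proton pump that acidifies lysosomes, rose from 687, 724 and 743 CPM to 1314, 1189 and 1140 CPM (0.76 ± 0.11, adjusted p = 0.0147). Among 62 lysosomal genes tested these 3 were called, against 0.395% of all genes, and none fell, and the median log2 difference was 0.09. Their groups did not overlap in 18 of the 62, 17 of them higher and 1 lower, or 29% against 17.3% of all genes. Lamp1, the abundant lysosomal membrane protein, was at 1949 ± 174 and 1981 ± 145 CPM and was chosen after its values were seen. With total-count scaling only Atp6v0d2 stayed called (adjusted p of the 3 from 0.0309 to 0.0755) and the list median was -0.01, against -0.112 over all genes under that scaling. None of the 3 was called without mice 42, 151 or 152 (adjusted p up to 0.109, 0.204 and 0.321), Atp6v0d2 alone without mouse 46, and Ctsl was lost without mouse 153 (0.0909). A term for sex ended the calls of all 3 (edgeR, adjusted p from 0.09 to 0.562).

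Promoters of both cathepsins are shown because the E-box was counted over the lysosomal list. The motif CACGTG reads the same on both strands. It occurred in the RefSeq windows of 16 of 50 matched lysosomal genes tested here (32%), against 2187 of 27025 genes (8.09%). The 8.09% covers every gene with a window, tested here or not, so it is not a matched background. Of the 31 called genes with a window, 5 (16.1%) held the motif. These were Ctsl, with its match at base -236 from the start site, and Pdpn, Sorl1, Nxpe4 and Sgk1. The windows lie at chr13:64370471-64370770 (minus strand) and chr3:95498960-95499259 (plus strand), and capitals mark the E-box. A match describes the sequence and is no evidence of binding.
Ctsl: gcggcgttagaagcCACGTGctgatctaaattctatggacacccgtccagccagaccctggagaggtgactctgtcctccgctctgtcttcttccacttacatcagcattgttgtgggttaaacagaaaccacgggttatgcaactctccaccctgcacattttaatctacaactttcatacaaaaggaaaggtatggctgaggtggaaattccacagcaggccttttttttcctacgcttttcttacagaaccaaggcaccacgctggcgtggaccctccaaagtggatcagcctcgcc
Ctsk: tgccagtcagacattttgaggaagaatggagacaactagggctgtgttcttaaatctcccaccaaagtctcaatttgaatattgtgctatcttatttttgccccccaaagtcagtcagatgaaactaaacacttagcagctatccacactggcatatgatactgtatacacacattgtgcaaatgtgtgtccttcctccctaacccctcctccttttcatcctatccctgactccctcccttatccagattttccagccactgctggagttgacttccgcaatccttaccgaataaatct

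The other genes that rose away from chromosome 9 had varied roles. Spp1, the secreted matrix protein osteopontin, was among the most abundant and rose from 3883, 4255 and 4031 CPM to 6902, 5957 and 5898 CPM (0.62 ± 0.11, adjusted p = 0.0425). Together with Il18 it was 1 of 2 cytokine genes called among 27 tested, against 0.395% of all genes. Prdx1, a peroxide-reducing enzyme, rose from 1111, 1423 and 1548 CPM to 2366, 2593 and 2182 CPM (0.81 ± 0.14, adjusted p = 0.0336). Sgk1, a serum- and steroid-induced kinase, rose from 268, 260 and 233 CPM to 391, 420 and 410 CPM (0.68 ± 0.10, adjusted p = 0.02). Pdpn, the membrane glycoprotein podoplanin, rose from 168 ± 10.2 to 260 ± 17 CPM (adjusted p = 0.0333). The complement receptor C5ar2 rose from 4.22 ± 0.393 to 10.3 ± 2 CPM (adjusted p = 0.0219). None of these 5 genes was called without mouse 152 (adjusted p up to 0.321) or without mouse 42 (up to 0.107). C5ar2 alone of them was called without mouse 151, Prdx1 alone without mouse 46, and Spp1 and C5ar2 were lost without mouse 153 (adjusted p of the lost genes at most 0.259, 0.102 and 0.0829). Scaling by total counts ended the calls of Spp1, Pdpn and Prdx1 (up to 0.0949), and a term for sex those of all 5 (up to 0.866).

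Transcripts of the mitochondrial genome were higher in cells labelled DKO. All 13 protein-coding genes lay higher in every library labelled DKO than in every WT library, against 8.65% of all genes tested. Of the 15 mitochondrial genes tested, 6 (40%) were called, against 0.395% of all genes, and none of them was lower. These genes are not independent of each other. COX1, a subunit of cytochrome oxidase and with Lyz2 the most abundant gene of these cells, rose from 25316, 27251 and 27211 CPM to 42554, 39445 and 38239 CPM (0.59 ± 0.11, adjusted p = 0.0459). ND6, the protein gene encoded on the strand opposite to the others, rose from 1060, 1133 and 1158 CPM to 1974, 1695 and 2037 CPM (0.77 ± 0.11, adjusted p = 0.0173). ND4, ND5, ATP6 and COX2 rose by 0.61 to 0.69. The mitochondrial share of all counts was 4.96%, 5.73% and 5.59% in WT cells and 8.07%, 7.48% and 7.48% in the others, or 5.43% ± 0.41 against 7.68% ± 0.34 (SD, n = 3 each; two-sided exact permutation p = 0.1, the smallest possible for 3 against 3). The 2 ribosomal RNAs of mitochondria, together 0.32% ± 0.08 and 0.38% ± 0.04 of counts, overlapped between groups. Nuclear genes of oxidative phosphorylation did not show calls, with 0 of 72 called by edgeR and a median of 0.10, while 18 lay higher and 2 lower without overlap (27.8%, against 17.3% of all genes). The 6 mitochondrial calls were all lost without mice 42, 151 or 152 (adjusted p up to 0.125, 0.267 and 0.367). Without mouse 153 only ND6 was called, without mouse 46 a pair of the 6 (adjusted p of the others up to 0.0943 and 0.0919), and with total-count scaling 1 (up to 0.103). All 6 were also lost with a term for sex (adjusted p from 0.533 to 0.897) and against the only WT male (0.0516 to 0.168), where COX1 differed by 0.56 and ND6 by 0.71. ND5 and ND6 overlap on opposite strands, and mitochondrial genes have nuclear copies, so reads may be shared.

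**Figure D3:**
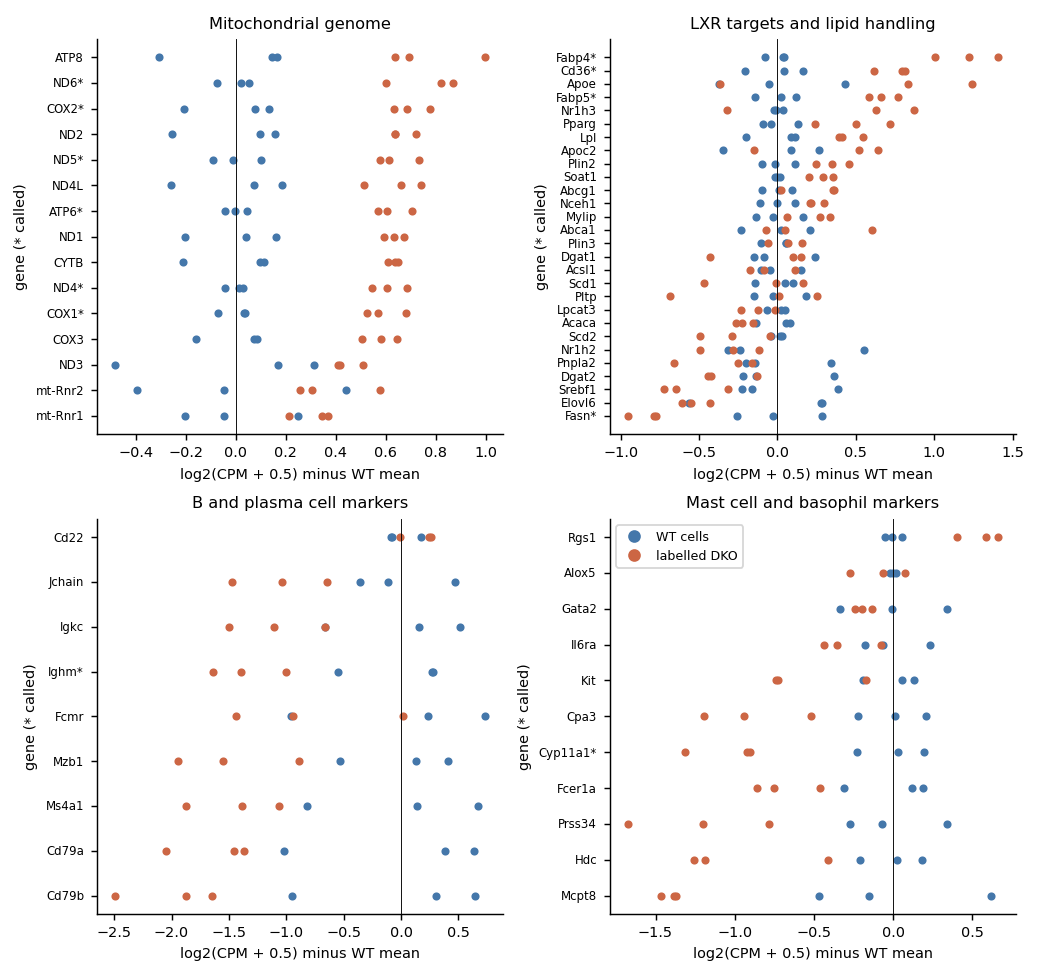
Log2(CPM + 0.5) of each library minus the mean of the 3 WT libraries, for tested genes of 4 lists; blue points are WT cells, red points cells labelled DKO, and an asterisk marks a called gene. The 13 mitochondrial protein genes lie to the right in every DKO-labelled library, Fabp4, Fabp5 and Cd36 lie right and Fasn left among lipid genes, and most B cell genes lie left.

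Single markers of B cells, of mast cells and basophils and of T cells fell in cells labelled DKO. Ighm, the heavy chain of immunoglobulin M, fell from 121, 122 and 68.4 CPM to 37.8, 31.9 and 49.9 CPM (-1.39 ± 0.24, adjusted p = 0.0496). Of 10 B and plasma cell markers tested it was the only one called, against 0.395% of all genes, and 7 lay lower without overlap (70%, against 8.62% of all genes), with a median log2 difference of -1.48 against -0.01 over all genes. Their summed level was 120 to 226 CPM in WT cells and 64.2 to 96.2 CPM in the others. The B cell receptor genes Cd79a and Cd79b, chosen after their values were seen, went from WT levels of 4.25 ± 2.35 and 6.16 ± 3.21 CPM to 0.907 ± 0.333 and 1.05 ± 0.437 CPM, and neither was called. WT mouse 46, the only WT male, had the lowest WT level of each, so these values vary within WT. In bulk RNA, fewer cells of a type and less RNA per cell cannot be told apart. Cyp11a1, which starts steroid synthesis and is expressed by mast cells and basophils, fell from 16.9, 15 and 12.5 CPM to 7.62, 7.5 and 5.61 CPM (edgeR, adjusted p = 0.0336). It was the only one called of 11 tested mast cell and basophil markers, against 0.395% of all genes. Of the 11, 6 lay lower and 1 higher without overlap (63.6%, against 17.3% of all genes; median -0.93), while the sum of the list ranged over 306 to 331 CPM for WT libraries and 300 to 364 CPM for those labelled DKO. The basophil protease Mcpt8 was at 6.48 ± 2.83 and 2 ± 0.085 CPM (adjusted p = 0.056) and the mast cell tryptase Tpsab1 at 0 in all libraries. Thy1, at -1.89 Mb from Sidt2, was the single call of 9 tested T and NK cell markers, against 0.395% of all genes. Of the 9, 3 lay lower without overlap (33.3%, against 8.62% of all genes). Their median was -0.70 and the sum of the list 52.2 to 56.2 CPM in WT and 41.9 to 52.2 CPM in the others, with Ncr1 and Prf1 at 0. Cd3g, on chromosome 9 near Sidt2, was at 0.735 ± 0.275 and 0.0427 ± 0.0484 CPM and was not called (adjusted p = 0.0755). None of 20 neutrophil markers was called by edgeR (median -0.22, sum 2952 to 4261 CPM and 3525 to 3865 CPM). Of the 20, 6 lay lower and 1 higher without overlap (35%, against 17.3% of all genes). Ighm was lost without mice 33, 42, 151, 152 and 153, Cyp11a1 without mice 42, 151, 152 and 153, and Thy1 without mice 42, 46, 151, 152 and 153 (adjusted p up to 0.277, 0.264 and 0.375). The part of these other cells in the results for dendritic cells was not tested.

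Other falling genes were few. Hmga1b, which encodes a chromatin architecture protein, fell from 54, 56.7 and 57.6 CPM to 27, 30 and 27.3 CPM (-0.99 ± 0.11, adjusted p = 0.00233), and missed the threshold without mouse 152 (0.0509). It is a near-identical copy of Hmga1, so its count is uncertain. Itga2b, the platelet integrin CD41, fell from 6.65 ± 1.76 to 2.19 ± 0.435 CPM (adjusted p = 0.0366). H2-M2, a non-classical MHC class I gene, fell from 137 ± 5.32 to 91.1 ± 8.44 CPM (adjusted p = 0.0438). The latter pair were lost without mice 42, 151, 152 or 153, and H2-M2 also without mouse 46 (adjusted p at most 0.264 for Itga2b and 0.247 for H2-M2).

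Of 36 gene lists, 19 had no called gene. With 0.395% of all genes called, lists of this size hold few calls or none, so their counts of 0 show nothing particular to them. RNA sensing was among them, with 0 of 34 genes called by edgeR (median -0.12), as were interferon-stimulated genes (0 of 53, median -0.12). Small RNA and Argonaute machinery (0 of 23, median -0.01) and autophagy (0 of 39) had none either. The endosomal double-stranded RNA receptor Tlr3 stood at 8.38 ± 1.67 and 11 ± 3.6 CPM, and the cytosolic sensor Ifih1 at 40.6 ± 2.64 and 43.9 ± 10.3 CPM. Their groups overlapped, as did those of the small RNA enzyme Dicer1, at 42.3 ± 1.78 and 42.6 ± 2.92 CPM, all 3 chosen after their values were seen. No MHC class II presentation gene (0 of 18, median -0.17) or MHC class I presentation gene (0 of 28, median -0.13) was called. Without overlap, 4 class II genes lay lower and 1 higher (27.8%). Of class I genes, 8 lay lower and 1 higher (32.1%), against 17.3% of all genes. Ciita, the master regulator of class II genes, stood at 116 ± 18.6 and 78.2 ± 13.5 CPM with groups apart (adjusted p = 0.2). Of 30 mature dendritic cell genes Fabp5 was the one called. Cell division genes (0 of 44, median -0.28) lay lower without overlap in 12 (27.3%), and immediate early and heat shock genes (0 of 31, median -0.24) in 10 (32.3%), against 8.62% of all genes. A gene that was not called is not shown to be equal in both groups.

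**Figure D4:**
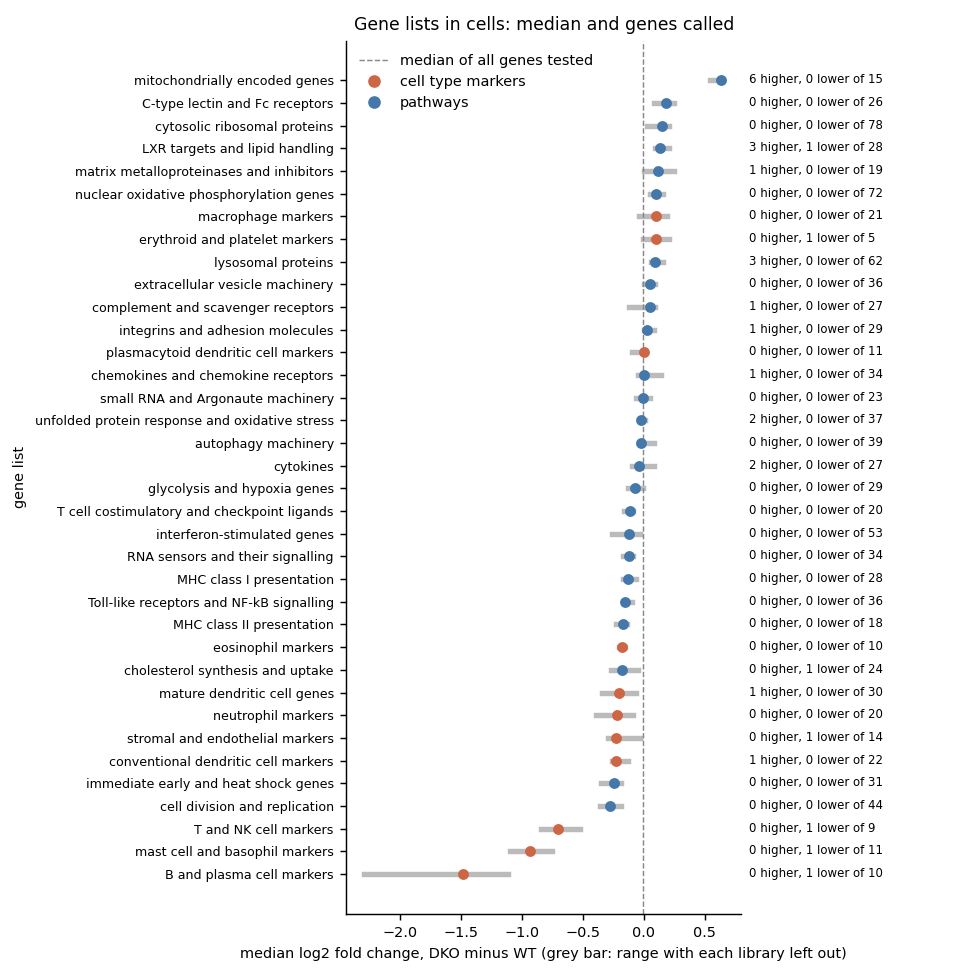
Median log2 fold change (cells labelled DKO minus WT) of the tested genes of each list, with the range of that median over the fits leaving out 1 library as a grey bar and the number of genes called at the right; red marks cell type markers and blue other lists. Mitochondrially encoded genes lie highest at 0.63 and B and plasma cell markers lowest at -1.48.

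Exosome libraries of the same 6 mice allowed the differences to be set beside those in vesicle RNA. In exosomes 4 of 11475 genes (0.0349%) were called, and all 4 were genes called in cells. These were Sidt2 (-7.76 ± 0.39, adjusted p = 1.49e-04), Sidt1 (7.43 ± 0.50, adjusted p = 8.44e-04), Wdfy1 (3.53 ± 0.26, adjusted p = 0.00134) and Cadm1 (5.70 ± 0.64, adjusted p = 0.0325). Of the 49 genes called in cells 46 were tested in exosomes, so 8.7% were called there. Mouse by mouse the libraries are matched, so the exosome values are not independent of the cell values. A test of whether the genotype difference itself differed between exosomes and cells called 0 of 12274 genes (edgeR interaction term, 727 or 5.92% at an unadjusted p below 0.05). Prdx1 had a log2 difference of 0.81 in cells and -0.07 ± 0.20 in exosomes, and the lowest unadjusted interaction p of the called genes in edgeR, 0.00398 (adjusted p = 0.715). Fabp4 differed by 1.22 in cells and 0.47 ± 0.22 in exosomes, and Nnt by 1.37 and 0.48 ± 0.26. The unadjusted p of edgeR's interaction term was 0.0131 and 0.0144 (both adjusted p = 0.715). Sidt1, with almost no WT counts, differed by 10.53 in cells and 7.43 in exosomes (edgeR interaction term, unadjusted p = 0.00911). Il18 and Mcam differed more in exosomes, by 2.26 ± 0.43 and 3.63 ± 0.74, than in cells, by 1.49 and 2.37. For these the unadjusted p of edgeR's interaction term was 0.11 and 0.0914. The mitochondrial COX1 differed by 0.59 in cells and -0.62 ± 0.53 in exosomes (edgeR interaction term, adjusted p = 0.715). None of these differences passed adjustment over all genes, so no gene was shown to respond differently in vesicles. The genes named here were called on the cell libraries, whose values the interaction term reuses. That choice favours larger differences in cells, so smaller ones in exosomes are no added result.

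**Figure D5:**
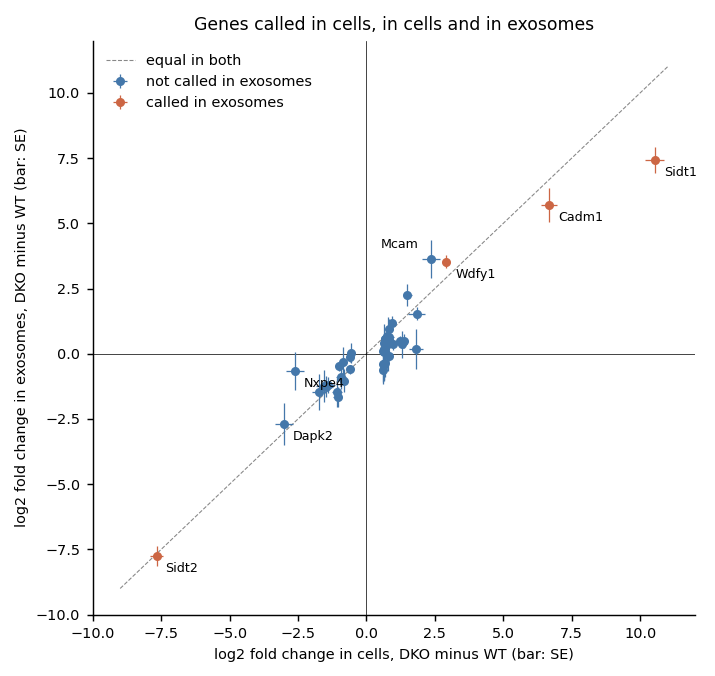
Log2 fold change (DKO-labelled minus WT) in exosomes against that in cells, with SE bars, for the genes called in cells and tested in exosomes; red points were also called in exosomes and the dashed line marks equal values. Sidt1, Sidt2, Cadm1 and Wdfy1 lie far from 0 on both axes, and most other genes lie near the line or closer to 0 in exosomes. The genes were chosen by their values in cells, which favours larger differences there.

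Sex was unevenly spread over the groups, so each call was also read against the only WT male. A fit with a term for sex rests, among WT libraries, on mouse 46, and called 11 genes, 9 of them among the 49. These were Sidt2, Sidt1, Cadm1, Wdfy1, Fabp4, Scn2b, Scn4b, Mpzl2 and Dapk2. With both female WT libraries left out, mouse 46 alone stands for WT and is assumed to vary as the other group does. Then 45 genes were called, 28 of the 49 among them. For Fasn the log2 difference was -0.86 in all libraries and -0.59 against mouse 46 alone (adjusted p = 0.233), and for Ighm -1.39 and -0.80 (0.154). For Ctsk it was 0.84 and 1.12, and for Slc37a2 0.68 and 0.92, so some differences were larger in the same-sex comparison. With the term for sex neither Ctsk nor Slc37a2 was called (edgeR, adjusted p = 0.09 and 0.125). In 20 of the 49 genes mouse 46 was the WT library nearest to those labelled DKO. The same share was not taken over all genes, so this count alone says nothing about sex. Sex and genotype cannot be fully told apart with 1 male in WT.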

How the data were processed

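Members and gene lists were chosen with earlier results of these data known. The authors deposited whole-number counts per gene. Per the submitters' processing notes they used featureCounts and build mm10; aligner, versions, annotation and strandedness: not given in the sources used here. Per the labels' protocols, 200 ng of Tri-Reagent RNA per sample went into TruSeq libraries for paired NextSeq reads of 80 bp. Symbols and coordinates came from RefSeq (GRCm38.p6, the assembly of mm10) for 25275 of 27179 identifiers and from GENCODE M21 for 18 more. The 1892 without a position held between 1.05% and 2.01% of each cell library's counts (95% Wilson intervals within 0.01 points) and stayed in the adjustment. The tables of the 12 libraries equalled the series table, and no pair of replicates differed by as little as sampling noise (chi-square per degree of freedom 11.85 or more in cells). Libraries came from separate mice.

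The 6 cell libraries were fitted as deposited counts with edgeR 4.0.16 (R 4.3.3), by robust quasi-likelihood F tests with its filter on low counts, TMM scaling and p-values adjusted (Benjamini-Hochberg) over every tested gene, X and Y included. Exosomes were fitted alike and the interaction on all 12 libraries. On simulated counts for 13106 genes, 200 of them changed, 89% of 2-fold and 100% of 4-fold changes were recovered with 16 false calls. The changed genes were drawn from the more abundant ones only, so this recovery does not cover genes of low counts. Alternatives were other scalings and filters, DESeq2 1.42.0, limma 3.58.1 (voom), all 12 libraries in 1 fit, sex as a covariate, no female WT library and each library left out.

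Mouse numbers pair cells with exosomes of the same animal. After group means were taken off, a mouse's cell and exosome libraries correlated at 0.006 to 0.147, and 6 of 6 cell libraries matched their own exosome library best. A block for the mouse was an alternative for the interaction.

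A few single-gene results are left out of this account. The text names Sidt1 and Sidt2, in each direction the 15 called genes that changed most (mean log2 CPM above 1, groups apart), up to 4 called genes per list by smallest p (or else 1 gene not called), called genes within 10 Mb of either locus, the 8 most abundant called genes, the 5 most abundant per group and the called gene with the smallest p per chromosome. Others are said to be chosen after their values were seen; the tissue markers in the opening and the genes next to the loci are too.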

Additional observations from a re-analysis of the deposited data

How the results depend on the processing

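The direction of the 49 called genes held in every alternative, but the number called did not. Against 49 genes (31 higher, 18 lower), no filter on low counts called 191 (101 and 90), DESeq2 171 (107 and 64) and limma voom 199 (129 and 70), while 1 fit of all 12 libraries called 7 (5 and 2) and sex as a covariate 11 (6 and 5). Of the 49, 48, 49, 49, 7 and 9 were among these in turn. Total-count scaling called 35, of which 15 were higher. Leaving out 1 library gave 5 to 112 called genes, 4 to 65 higher and 1 to 47 lower. The lowest came without mouse 152 and the highest without mouse 33; the cause was not tested. DESeq2 size factors called 50, a filter of 1 CPM in 3 libraries 46, and leaving out mitochondrial genes and the top 20 by abundance 38. For named genes, 766 values under an alternative kept their side of the threshold, 277 fell below it, 36 newly passed and 0 reversed. No paired analysis of cells labelled DKO against WT was possible because the groups share no mouse. In the interaction, where the mouse number pairs cells with exosomes, a replicate block for the mouse called 0 genes, with 571 at an unadjusted p below 0.05 (4.65%), and it changed no other call. The number of mice and the smaller libraries of mice 151 and 153 limit what could be detected, and genes near 3 counts per library are the least certain.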
